A study of Mus musculus with 6 samples.

Results

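The 9 genes Brca2, Rad51ap1, Rad54l, Xrcc2, Bard1, Exo1, Blm, Fanca and Brip1 encode proteins of homologous recombination and of DNA crosslink repair. They were taken by name from the 3549 entries that the study's table lists as differing between B16 and melan-a cells. That table gives no probe, and the array files give no gene names. A probe was therefore assigned to a gene when its mean ratio over the 6 arrays gave the listed fold within 0.00051, and every probe that did so was kept as a candidate. This left 48 candidate probes among the 41174 probes of the array, and no probe was a candidate of more than 1 of the 9 genes. Because the table holds only genes called on these same arrays, the direction of each of the 9 genes was fixed by the choice, and their ratios are given as a description without a test.

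B16 is a mouse melanoma line, and the study describes it as having deletions of the p16INK4a and p19ARF genes and an activating N-ras mutation. Melan-a is a partially immortalized mouse melanocyte line that does not form tumors. Both are of strain C57/Bl6, neither was treated with retinoic acid here, and each is a single cell line. B16 cells grew in DMEM with calf serum and melan-a cells in RPMI 1640 with fetal bovine serum and a phorbol ester, so the cell line and its medium cannot be told apart. RNA of both lines was hybridized together on 6 two-colour mouse genome arrays, 1 for each biological replicate. On replicates 1, 3 and 5 (standard labeling) Cy3 marked the RNA of B16 and Cy5 that of melan-a, and on replicates 2, 4 and 6 (flip) the dyes were exchanged. Ratios below are log2 of melan-a over B16, so a negative ratio means a higher signal in B16. The arrays measured RNA of whole cultures, in which more cells with a transcript and more RNA per cell cannot be told apart.

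Homologous recombination repairs a broken chromosome by copying the sister DNA molecule, and therefore runs mainly in S and G2 phase. The broken end is first cut back to a single strand by nucleases such as EXO1. BRCA2 then prepares that strand for the exchange, with BARD1 (as the partner of BRCA1), XRCC2, RAD51AP1 and RAD54L acting up to and in the invasion of the sister molecule, and the BLM helicase takes the joined molecules apart. DNA crosslinks are recognized by the Fanconi anemia pathway, which contains FANCA in its core complex and the helicase BRIP1 and hands the resulting breaks to recombination.

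Many genes of this kind are known to be transcribed with the cell cycle through E2F and CCAAT-binding factors, so the promoters of the 9 genes were searched for such letters. The RefSeq promoter table (GRCm38.p6, 250 bases before and 50 after the start) held 7 of them. An E2F motif, taken as TTTCCCGC, TTTCGCGC, TTTGCCGC or TTTGGCGC on either strand, occurred in Brca2 and Bard1, and in 2.26% of all 32851 promoters. The match lay 168 bases before the start of Brca2 on the opposite strand and 209 bases before the start of Bard1 on its own strand. Both promoters are shown with the match in capitals, Brca2 from chr5:150522371-150522670 (plus strand) and Bard1 from chr1:71102923-71103222 (minus strand).
Brca2: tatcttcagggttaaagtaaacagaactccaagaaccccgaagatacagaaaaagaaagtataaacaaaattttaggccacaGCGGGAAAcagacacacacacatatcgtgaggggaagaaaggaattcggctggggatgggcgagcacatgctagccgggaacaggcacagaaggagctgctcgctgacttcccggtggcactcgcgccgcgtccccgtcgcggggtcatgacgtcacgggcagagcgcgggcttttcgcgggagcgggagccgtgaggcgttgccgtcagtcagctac
Bard1: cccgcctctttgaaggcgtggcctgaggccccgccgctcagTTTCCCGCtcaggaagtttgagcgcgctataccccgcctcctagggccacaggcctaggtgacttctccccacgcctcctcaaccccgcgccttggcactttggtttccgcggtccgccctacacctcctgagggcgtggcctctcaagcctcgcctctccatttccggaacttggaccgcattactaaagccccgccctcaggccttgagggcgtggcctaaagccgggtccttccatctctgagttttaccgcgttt
The letters CCAAT, on either strand, occurred in the promoters of 5 of the 7 genes (Rad54l, Rad51ap1, Blm, Fanca and Brip1) and in 37.4% of all promoters. Brip1 had 3 matches, all on the opposite strand, which start 99, 67 and 34 bases before its start. Fanca had 2 matches on its own strand, 50 and 23 bases before its start. The promoters of Fanca and Brip1, which had the most negative mean ratios of the 9 genes, are shown with CCAAT or its reverse complement in capitals, Fanca from chr8:123318527-123318826 and Brip1 from chr11:86201144-86201443 (both minus strand).
Fanca: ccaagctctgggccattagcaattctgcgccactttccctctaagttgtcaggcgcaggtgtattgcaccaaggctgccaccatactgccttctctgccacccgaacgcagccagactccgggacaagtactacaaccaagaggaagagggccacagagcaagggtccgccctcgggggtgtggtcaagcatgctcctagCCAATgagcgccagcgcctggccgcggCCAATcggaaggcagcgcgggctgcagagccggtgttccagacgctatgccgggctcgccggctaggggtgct
Brip1: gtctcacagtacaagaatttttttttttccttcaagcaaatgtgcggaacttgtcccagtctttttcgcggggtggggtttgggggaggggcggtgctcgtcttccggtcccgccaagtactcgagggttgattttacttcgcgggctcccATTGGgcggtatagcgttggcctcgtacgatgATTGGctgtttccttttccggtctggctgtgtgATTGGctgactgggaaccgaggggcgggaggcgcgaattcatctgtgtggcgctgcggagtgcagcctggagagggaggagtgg
The GC box GGGCGG was present in 5 of the 7 promoters (35.7% of all promoters), and the letters TTTGAA of the cell cycle homology region in Bard1 alone among the 7 (17.9% of all promoters). The only overlap between matches was in Brip1, where a GC box starts inside the first CCAAT match. A match is a description of the letters, and binding of a factor was not measured.

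The arrays differed in brightness. The median summed signal of both dyes lay between 779.9 and 4307.5, and at least 81.6% of spots on each array were above an intensity limit of 400. The study set its limit of 400 on background-subtracted signals. The signals summed here had no background correction, so the limit is not the same filter as the study's. On replicate 1 it removed almost no spots. The log2 ratios of all probes correlated between arrays with Pearson r from 0.07 (replicates 1 and 4) to 0.61. With limma, 2504 of 39687 probes tested were lower in melan-a (6.31%) and 2076 higher (5.23%), the thresholds being a fold of 1.5 and an adjusted p of 0.10. All 48 candidates were among the probes lower in melan-a, and so every candidate of each of the 9 genes passed. Nothing is read from this count, since of 2700 probes lower by that fold 92.7% also met the adjusted p. One-class SAM called the same 48 candidates, with 2588 probes lower in melan-a in all (6.52%). The ratio was negative on all 6 arrays for 45 candidates, as it was for 9.05% of all probes, and on 5 arrays for the other 3.

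**Figure D1:**
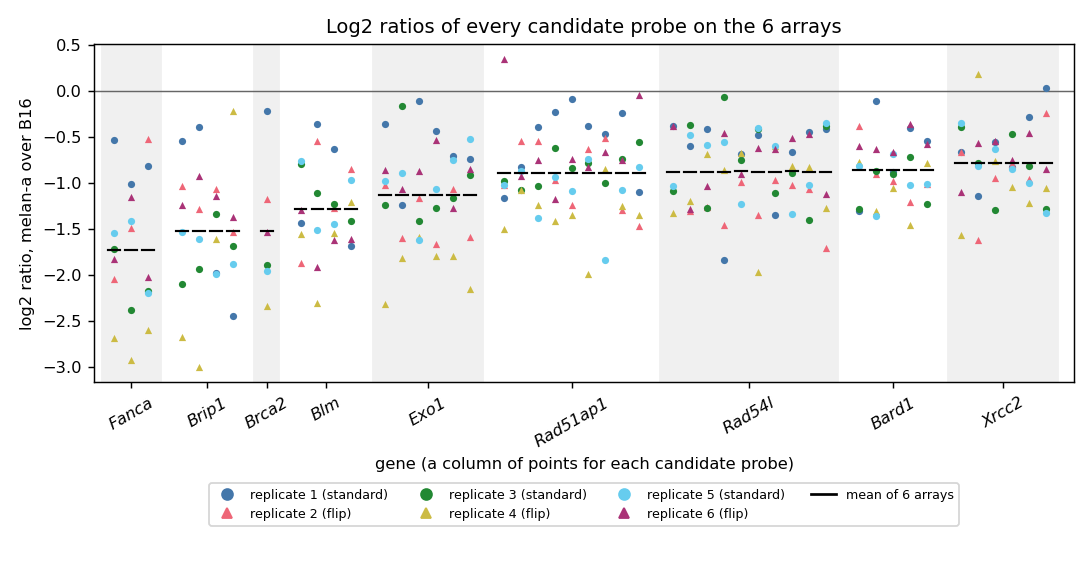
Log2 ratio of melan-a over B16 (vertical axis) on each of the 6 arrays for the 48 candidate probes, grouped by gene along the horizontal axis; circles are standard and triangles flip labeling, and black bars are means of 6 arrays. Points of 3 candidates (1 of Rad51ap1 and 2 of Xrcc2) lie above 0, and the remaining points lie below it.

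Brca2 was the only one of the 9 genes with a single candidate probe (A_52_P513394). Its ratios on replicates 1 to 6 were -0.22, -1.18, -1.89, -2.34, -1.96 and -1.53, with a mean of -1.52 ± 0.75 (SD, n = 6; SE 0.31), a signal 2.86-fold higher in B16. The signal was higher in B16 on each of the 6 arrays, by little on replicate 1 and by most on replicate 4. In B16 the log2 signals of replicates 1 to 6 were 8.77, 9.28, 10.37, 10.60, 11.13 and 9.72. In melan-a they were 8.56, 8.10, 8.48, 8.26, 9.18 and 8.19. Signals of B16 spread over a wider range than those of melan-a, and the ranges overlapped because replicate 1 of B16 lay below replicate 5 of melan-a. The 95th percentile of the 314 negative control spots was exceeded on 6 arrays in B16, and in melan-a on all but replicates 1 and 4. On those arrays the melan-a signal lay within the range of spots with no target. The study also measured Brca2 by qRT-PCR and reported it as lower in melan-a than in B16, by a larger factor than on its arrays. That measurement does not identify the probe, and the name Brca2 of this probe rests on the fold match alone. There were 61 probes within 0.01 of the listed fold, which is 3.11 for each window of the matching width, and 3 probes lay within 0.001 of it.

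**Figure D2:**
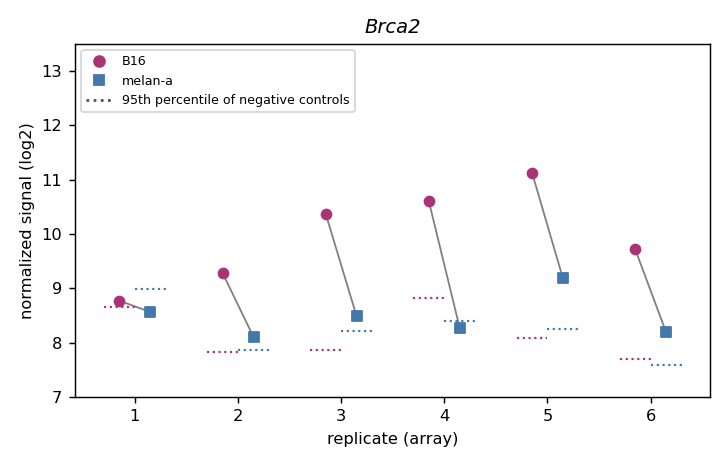
Normalized log2 signal (vertical axis) of the Brca2 candidate on replicates 1 to 6 (horizontal axis); circles are B16, squares melan-a, lines join the dyes of 1 array and dotted lines are the 95th percentile of negative control spots. B16 lies above melan-a on all 6 arrays, and melan-a lies below the dotted line on replicates 1 and 4.

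The other genes of strand exchange had smaller ratios and more candidates. Rad51ap1, whose product stimulates strand invasion, was 1.86-fold higher in B16 (mean ratio -0.89). Its 9 candidates had SDs between 0.20 and 0.63 and array ratios between -1.99 and 0.34. The candidates were lowest, taken by their median, on replicate 4 at -1.35 and nearest to 0 on replicate 1 at -0.39. The candidates of Rad51ap1 and those of Rad54l were each shared with 8 other entries of the same listed fold (among them A2m and Mvk for Rad51ap1, and Ddx18 and Hoxd10 for Rad54l). Rad54l, a DNA motor protein of strand exchange, was 1.83-fold higher in B16 (mean ratio -0.88; 10 candidates, SD 0.21 to 0.66). Its candidates ran from -1.97 to -0.07, were negative on all 6 arrays, and had medians by array between -1.16 on replicate 2 and -0.54 on replicate 1. Xrcc2, which helps to assemble the exchange machinery on the strand, was 1.73-fold higher in B16 and had the smallest mean ratio of the 9 genes, -0.79 (6 candidates, SD 0.19 to 0.60). Of its candidates 4 were negative on all 6 arrays, while 1 reached 0.18 on replicate 4 and 1 reached 0.03 on replicate 1. It shared them with 3 other entries, among them Mrpl2.

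Bard1, the RING domain partner of BRCA1, was 1.82-fold higher in B16 (mean ratio -0.86; 5 candidates, SD 0.15 to 0.46). Its array ratios ran from -1.46 to -0.11, and the medians by array from -1.06 on replicate 4 to -0.55 on replicate 1. The candidates of Bard1 are also those of E2f1, Alkbh2 and Tmem199, which have the same listed fold, so the probe of Bard1 cannot be told from theirs. In 1 Bard1 candidate the summed signal fell to 380 on 1 array, which the fit left out. Exo1, a nuclease that resects broken ends, was 2.19-fold higher in B16 (mean ratio -1.13; 6 candidates, SD 0.40 to 0.65). On replicate 4 its 6 candidates lay between -2.32 and -1.59, and on replicate 1 between -1.24 and -0.11. The ranges of these arrays did not overlap, and replicate 4 was the lower. Exo1 shared its candidates with 3 other entries, among them Eri1.

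Blm, the RecQ helicase that dissolves double Holliday junctions with topoisomerase III and RMI1, was 2.45-fold higher in B16 (mean ratio -1.29; 4 candidates, SD 0.34 to 0.76). Medians over its candidates were -1.03, -1.06, -1.17, -1.56, -1.21 and -1.62 on replicates 1 to 6. By these medians Blm was most negative on replicate 6, Rad54l on replicate 2 and the other 7 genes on replicate 4. Blm shared its candidates with Hmgb1, Mthfd1 and 1700049L16Rik.

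Of the crosslink repair genes, Fanca had the most negative mean ratio of all 9 genes, -1.73, or 3.31-fold higher in B16 (3 candidates, SD 0.70 to 0.84). On replicate 1 its candidates lay between -1.01 and -0.54, on replicate 2 between -2.04 and -0.53, and on replicate 3 between -2.38 and -1.72. On replicates 4, 5 and 6 they lay between -2.92 and -2.60, between -2.20 and -1.42, and between -2.02 and -1.15. All 3 candidates were most negative on replicate 4. In candidate A_51_P514700 the log2 signals lay between 10.25 and 13.43 in B16 and between 9.23 and 12.01 in melan-a, and these ranges overlapped. Fanca shared its candidates with Spc25, a kinetochore gene, and Gstt3.

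Brip1, the helicase that binds BRCA1 and acts in crosslink repair, was 2.88-fold higher in B16 (mean ratio -1.52; 4 candidates, SD 0.41 to 0.90). Its candidates did not share an array pattern. A_51_P295206 and A_51_P489268 were nearest to 0 on replicate 1, at -0.55 and -0.39, and most negative on replicate 4, at -2.67 and -3.00. A_52_P525674 ran the other way, with -2.45 on replicate 1 and -0.22 on replicate 4. The remaining candidate, A_52_P322962, varied less, between -1.99 and -1.07. Which of the 4 is the probe of Brip1 cannot be told from the mean ratio, and Srsf1 has the same candidates.

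Ordered by mean ratio, the genes ran from Fanca over Brip1, Brca2, Blm, Exo1, Rad51ap1, Rad54l and Bard1 to Xrcc2. Neighbors in this order differed by at most 0.24 in log2. Since all genes were read on the same arrays, neighbors were also compared array by array, by the medians over their candidates. Exo1 minus Rad51ap1 averaged -0.24 ± 0.21 (SD, n = 6) and was negative on 5 of 6 arrays. In the other 7 pairs the mean difference was smaller than its SD over the arrays. The listed folds that named the probes largely set these mean differences, and the medians may include probes of other genes. No difference between neighbors, or lack of one, is read from these values.

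The size of the ratio changed from array to array in a way the 9 genes had in common with other probes. Medians over the 9 genes were -0.57, -1.16, -1.17, -1.56, -1.02 and -0.86 on replicates 1 to 6. The same medians over the 2504 probes lower in melan-a were -0.62, -1.07, -0.85, -1.38, -0.82 and -0.88. Replicate 1 gave the ratio nearest to 0 in 24 of 48 candidates, and in 40.1% of the 2504 probes. Replicate 4 gave the most negative ratio in 24 of 48 candidates, and in 50.2% of the 2504 probes. Its log2 ratios also spread most over all probe spots, with an SD of 0.802 against 0.481 to 0.622 on the other arrays. The image of replicate 1 was quantified on a day of its own, and a day with a single array cannot be separated from whatever else set that array apart. In melan-a, 31 of 48 candidates exceeded the 95th percentile of negative controls on replicate 1, against 42 to 48 on the other arrays. In B16, 45 of 48 exceeded it on replicate 1 and 46 to 48 on the others. The part of signals near background in the weak ratios of replicate 1 was not tested.

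**Figure D3:**
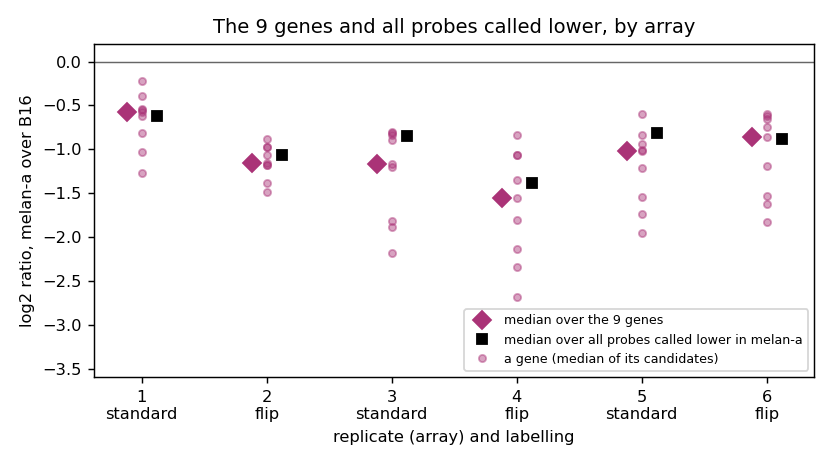
Log2 ratio of melan-a over B16 (vertical axis) on replicates 1 to 6 with their labeling (horizontal axis); circles are the 9 genes (median of their candidates), diamonds the median of the 9 genes and squares the median of the 2504 probes lower in melan-a. Both medians are nearest to 0 on replicate 1, at -0.57 and -0.62, and most negative on replicate 4, at -1.56 and -1.38.

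The difference between the labelings does not enter the mean ratio that named the probes. It does widen the spread over arrays, which the study's test weighed, so the counts below are not independent of the choice of genes. With limma, the difference between standard and flip arrays passed an adjusted p of 0.10 in 0 of 48 candidates and in 16 of 39659 probes (0.0403%). At an unadjusted p under 0.05 it was 9 of 48 candidates, and 13.2% of all probes. The lowest adjusted p of a candidate was 0.226 (a Rad54l candidate, standard minus flip 0.98 ± 0.24 SE). For Brca2 the mean was -1.35 on the 3 standard and -1.68 on the 3 flip arrays, a difference of 0.33 ± 0.48 (SE, adjusted p = 0.811 by limma), so a difference of this size was not detectable with 3 arrays each. Of the candidates, 31 of 48 were more negative on the flip arrays, as were 77.7% of the 2504 probes. The median difference, standard minus flip, was 0.175 over the candidates and 0.37 over those probes.

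Over the 6 arrays the ratios of Brca2 correlated with those of the 3 Fanca candidates at Pearson r from 0.74 to 0.85. With Brip1 the 4 candidates gave r from -0.75 to 0.90, and with Rad54l the 10 candidates gave r from -0.77 to 0.73. Fanca was the only one of the other 8 genes whose candidates all had a positive r, but it also had the fewest candidates of the 8. Over all other probes lower in melan-a the median r was 0.39, and over the 2076 probes higher in melan-a it was -0.26. These r are over 6 points that share arrays, dyes and brightness. Among 355 entries with a symbol and a probe of their own, the 5 most like Brca2 were Csrp2 (r = 0.994), Ptprs (r = 0.988), Ifi27 (r = 0.987), Rdh5 (r = 0.986) and Slc37a2 (r = 0.974). Of these only Csrp2, which encodes a LIM domain protein, was higher in B16 (3.78-fold). The other 4 were higher in melan-a, by 2.33-fold for Ptprs to 3.77-fold for Rdh5. A high r with Brca2 was thus found for genes of either direction, all with their highest ratio on replicate 1 and their lowest on replicate 4.

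The wider pathway was described with 4 lists (homologous recombination, break sensing and end resection, junction resolution and RecQ helicases, Fanconi anemia and crosslink repair), which hold 84 genes. The study's table held 36 of them by symbol, all listed as lower in melan-a, as were 2054 of all 3549 entries (57.9%). Without the 9 genes, 27 of 75 were found, with a median ratio of -0.94. Every candidate passed in 16 of these 27, all lower in melan-a, and in 11 some candidates did not, so their call is undecided. Among the 2054 entries listed as lower, 1290 passed (62.8%) and the median of the listed ratios was -0.91. Neither the share nor the median set these 27 genes apart. The 9 genes left out all passed, and leaving them out lowers the share. With them, 25 of 36 passed and the median ratio was -0.98. Without replicate 2, 10 of the 27 passed. A gene with a ratio near the threshold has more candidates and is more often undecided. The genes that were not found by symbol, such as Brca1 and Palb2, have no value here. Some of them may be among the 1129 entries without a symbol. The table holds only genes called on these arrays. The directions and tests of all list genes, here and below, are therefore not independent of that choice.

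In the recombination list, Rad51b, which acts in a complex with XRCC2, was 2.05-fold higher in B16 (SE up to 0.26 and adjusted p up to 0.028 by limma over 11 candidates). Mnd1 and Psmc3ip, whose products form a complex that assists strand invasion in meiosis, were both 2.04-fold higher (adjusted p up to 0.046 and 0.057). Among sensing and resection genes, the checkpoint kinase gene Chek1 was 3.59-fold higher in B16 (adjusted p up to 0.0099). Rpa3, a subunit of the single-strand binding protein RPA, was 2.79-fold higher (adjusted p up to 0.0085), Topbp1, which activates ATR, 2.41-fold (up to 0.022) and the nuclease gene Dna2 2.34-fold (up to 0.0049). The junction list gave Rmi1, a partner of BLM, at 2.07-fold (adjusted p up to 0.030) and the helicase gene Rtel1 at 1.78-fold (up to 0.053). In the Fanconi anemia list, Ube2t, the ubiquitin-conjugating enzyme of the pathway, was 3.38-fold higher in B16 (adjusted p up to 0.0080), and its substrate Fanci 2.85-fold (up to 0.0064). Usp1, which removes that ubiquitin again, was 2.32-fold higher (adjusted p up to 0.0033). Fancd2, found only by the description of its entry and not counted among the list genes found, was 2.51-fold higher (3 candidates, adjusted p up to 0.0083).

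Other repair pathways were mostly listed in the same direction. Of 62 genes of end joining, mismatch, nucleotide and base excision repair, 19 were found, with 13 lower in melan-a, 1 higher and 5 undecided. Of the 19, 18 were listed as lower, beside 57.9% of all entries, and 62.8% of all entries listed as lower passed. In base excision repair 6 of 9 genes found passed as lower, among them the ligase gene Lig3 (3.26-fold higher in B16, adjusted p up to 0.0011) and the glycosylase genes Neil3 (2.95-fold, up to 0.0061) and Tdg (2.66-fold, up to 0.0051). Tdg had 2 entries in the study's table, and only the entry with the fewest candidates was used. Parp1, the poly(ADP-ribose) polymerase that senses nicks, was 2.39-fold higher in B16 (adjusted p up to 0.029). In end joining 2 of 3 passed, Tdp2, which frees ends from topoisomerase (2.31-fold), and the Ku subunit gene Xrcc6 (2.17-fold). In mismatch repair 2 of 3 passed, the mismatch recognition genes Msh3 (2.14-fold) and Msh6 (1.91-fold). In nucleotide excision repair Ccnh (2.48-fold), Gtf2h2 (2.29-fold) and Gtf2h1 (1.66-fold), all of the transcription factor TFIIH, passed as higher in B16. Xpa, a damage recognition gene, was the only repair gene of these lists that passed in the other direction, with a signal in melan-a 1.82-fold that in B16 (SE 0.15 in log2, limma adjusted p = 0.0055). Whether the recombination lists differed from these lists was not tested.

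Of 24 genes of S phase and mitosis, 22 were found by symbol, all listed as lower in melan-a, and their median ratio was -1.72. Every candidate passed as higher in B16 in 18 of them, beside 62.8% of all entries listed as lower, and the other 4 found (Ccnb2, Ccne2, Mcm4 and Plk1) were undecided. Top2a, the topoisomerase of dividing cells, was 9.49-fold higher in B16 (adjusted p = 0.0016 by limma), Ccnb1, the cyclin of mitotic entry, 8.28-fold (adjusted p = 0.00091), Mcm2, of the replicative helicase, 6.11-fold (up to 0.00086) and the spindle checkpoint gene Bub1 6.06-fold (up to 0.0025). Mki67, named from the description of its entry and not counted among the 22, was 4.49-fold higher (limma adjusted p = 0.0046). The part of the share of cells in S and G2 phase in the ratios of the 9 genes was not tested. Of 12 pigment cell markers, Kit (1.85-fold) and Oca2 (5.86-fold) were found, both higher in melan-a (adjusted p = 0.0027 and 0.012 by limma), and Tyr, Dct, Mitf and the other 7 have no value here. Of 11 markers of other cell types only the collagen gene Col1a1 was found, 7.18-fold higher in melan-a (adjusted p = 0.016). The adjusted p of these S phase genes and markers are not independent of the study's choice on the same arrays.

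**Figure D4:**
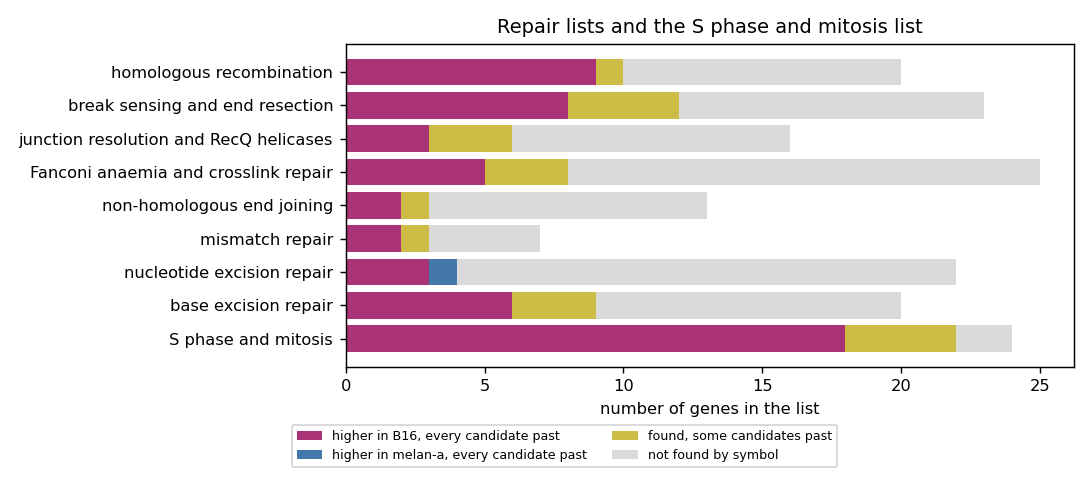
Number of genes (horizontal axis) in each of 8 repair lists and the S phase and mitosis list (vertical axis), the 9 genes included; colors give genes with every candidate past the thresholds as higher in B16 or higher in melan-a, genes found with some candidates past, and genes not found by symbol. In homologous recombination 9 of 10 genes found passed as higher in B16 (4 of 5 without the chosen genes), and in S phase and mitosis 18 of 22. Among all entries listed as lower in melan-a, 62.8% passed.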

How the data were processed

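Per the file headers, the authors read the images in ImaGene 6.0.1 and deposited log2 signals of both dyes, normalized by a global lowess within the array (smoothing 0.2) without background correction. From the normalized mean signals, the log2 ratio of melan-a over B16 was formed by the dye labels. The columns of replicates 4 and 5 in the series matrix hold each other's array file, so the array files were used, whose image names match the labels. Spots of a probe were averaged, the fits omitted spots whose summed signal did not exceed 400, and a value on at least 3 of 6 arrays was required. A one-class model was fitted with limma 3.58.1 (R 4.3.3), p-values were adjusted by the Benjamini-Hochberg method over all probes, and thresholds were an adjusted p of 0.10 and a fold of 1.5. Labeling was fitted as a second term for its own test. One-class SAM used 64 sign permutations (median false discovery rate 9.96%). Tables and plots were made in Python 3.11.15 (pandas 2.3.3, numpy 2.4.6, matplotlib 3.10.9, scipy 1.17.1), and the models were tested on simulated data.

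Of the 3549 entries in the study's table, 2283 were named by accession, 54 by symbol and 83 by synonym, and 1129 had no symbol. Its folds named the probes, and 497 entries matched a single probe and 4 none. They also gave the listed direction of each entry and the median ratio of all entries listed as lower. The 9 genes and all lists were chosen with earlier results of these data known. Beside the 9 genes, the text names up to 4 genes of each repair list and of the S phase and mitosis list, those with the largest ratio among genes with every candidate past the thresholds, some key genes and the pigment markers whatever their result, and the 5 entries most like Brca2. Col1a1, undecided S phase genes and genes with shared candidates were named after their values were seen. Alternatives were median signals, no intensity limit, values on all 6 arrays, centering, labeling as a second term, SAM, a wider match and leaving out each array. The precision is limited by the number of arrays. One gene that the rule names is not reported here.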

Additional observations from a re-analysis of the deposited data

Results flagged for a closer look

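In 2 of the 48 candidate probes, both of Rad51ap1, 1 array lay far from the other 5 of that probe. Candidate A_51_P155582 had a ratio of 0.34 on replicate 6, where the next nearest array was at -0.98, a gap of 0.717 of the whole range. Candidate A_51_P477414 had a ratio of -1.99 on replicate 4, where the next was at -0.83, a gap of 0.720 of the range. Chance alone gives such a gap in about 1 in 20 groups of this size. At most 1 of the 9 Rad51ap1 candidates is that gene's listed probe, so either value may belong to another gene.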

How the results depend on the processing

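The mean ratios of the 9 genes were negative under 90 of 90 combinations of gene and alternative, a sign fixed by the choice of genes. In all of these they moved by less than 1 SD, the largest SD among the gene's candidates. The widest range was -1.81 to -1.35 for Brca2. Leaving out 1 of 6 arrays cannot move a mean by 1 SD, so those fits could not have shown a larger move. All 9 genes passed except that 8 did with a value required on all 6 arrays (Bard1 lost), 7 without replicate 2 (Rad54l and Xrcc2 lost), and 6 with probes matched within 0.001, where 97 of 102 candidates passed. Leaving out 1 array gave 2011 to 2815 probes lower and 1576 to 2235 higher in melan-a. The recombination and crosslink genes that passed as lower, the 9 genes left out, numbered 10 (without replicate 2) to 17 when 1 array was left out, 18 by SAM and with a value on all 6 arrays, and 23 with labeling as a second term, against 16. That term gave 21 S phase and mitosis genes, against 18, and 2639 probes lower in melan-a. Probes past the labeling test numbered 0 (without replicate 5) to 58 (without replicate 6), against 16, and none of them was a candidate in any of these fits. Without replicate 5, 4648 of 38814 probes had an unadjusted p under 0.05 in that limma test. The causes were not tested. Every array holds both lines, so the ratio of an array is already a paired comparison of them, and the arrays form a single group. Probe names rest on the fold match alone, and melan-a signals of 1 or more candidates lay within the range of negative controls on each array but replicate 5.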
